A study of Mus musculus with 40 samples.

Results

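The p53 pathway and its apoptosis regulators were followed through 10 genes in the livers of mice dosed with GenX (the ammonium salt of hexafluoropropylene oxide-dimer acid, a perfluorinated ether used in fluoropolymer production). They were Trp53, Mdm2, Ccng1, Cdkn1a, Gadd45a, Gadd45b, Btg2, Bax, Mcl1 and Bcl2l1. They were chosen by gene symbol and are 10 of the 21448 genes and 19 of the 30146 probes in the count table. Each gene was described on its most counted probe, and its other probes were used as a check. Wild type Crl:CD1(ICR) mice were dosed with GenX by daily gavage over 90 days, in deionized water. The dose groups were 0.1 mg/kg, 0.5 mg/kg and 5 mg/kg of body weight, beside controls given the water alone. The livers of 5 males and 5 females from each dose group, the first by animal number out of larger groups, were sequenced, and each mouse gave 1 library, so the spread given here is between animals. The age of the mice was not given in the sources used here. RNA was measured by TempO-Seq, in which a pair of detector oligos is ligated on its target RNA and the ligated product is amplified and counted, in lysates scraped from formalin-fixed, paraffin-embedded sections of whole liver.

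The p53 protein, product of Trp53, is a transcription factor that is held at a low level by the ubiquitin ligase Mdm2, which is itself a p53 target. It is stabilized after DNA damage and other stresses, largely without a change in its own mRNA, and it raises genes that halt the cell cycle, such as Cdkn1a, and genes that promote death through mitochondria, such as Bax. Gadd45a, Gadd45b and Btg2 are also immediate stress-response genes with inputs other than p53. Mcl1 and Bcl2l1 encode the opposing, survival side of the BCL2 family, and hepatocytes depend on both.

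Promoter windows from RefSeq (build GRCm38.p6, 250 bases before to 50 after each annotated start) were found for all 10 genes, 13 windows in all. They were searched for the p53 half-site consensus, a palindrome of 10 bases that reads the same on both strands. Of the 13 windows, 6 held it, 1 each for Trp53, Mdm2, Ccng1, Cdkn1a, Gadd45a and Bax, against 8.36% of all 32851 windows. No half-site of this strict form lay in the windows of Gadd45b, Btg2, Mcl1 or Bcl2l1, which says nothing of sites elsewhere. The sites are shown because the set joins p53 and its targets with apoptosis regulators. Half-sites are in capitals, with 10 bases on each side. Cdkn1a carried 2 half-sites 12 bases apart, an arrangement with a spacer of at most 13 bases that was found in 24 windows (0.0731%).
Trp53, chr11:69580274-69580303, plus strand: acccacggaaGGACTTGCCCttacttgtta
Mdm2, chr10:117710925-117710954, minus strand: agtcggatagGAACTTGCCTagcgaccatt
Ccng1, chr11:40755452-40755481, minus strand: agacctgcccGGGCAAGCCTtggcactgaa
Cdkn1a, chr17:29090896-29090947, plus strand: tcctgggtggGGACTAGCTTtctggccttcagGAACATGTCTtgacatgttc
Gadd45a, chr6:67037428-67037457, minus strand: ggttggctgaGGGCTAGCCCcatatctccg
Bax, chr7:45467080-45467109, minus strand: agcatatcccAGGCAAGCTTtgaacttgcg
These matches are a description of the letters in the windows. The expression data do not bear on which of them p53 occupies.

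The 39 analysed libraries held 10341341 to 15562253 reads. The reads came from far fewer captured molecules. Probe counts formed a lowest peak at 20.8 to 49.8 reads, taken here as the yield of 1 molecule, which gave 287244 to 656743 molecules per library. The low members therefore rest on few molecules. The median over the mice was 2.2 molecules for Mdm2, 2.3 for Btg2, 3.7 for Cdkn1a, 3.8 for Gadd45b and 4.3 for Gadd45a, against 10.9 for Ccng1, 21.4 for Bax and 37 for Mcl1. Cdkn1a had no reads in 12 libraries and Btg2 in 7. Males at 5 mg/kg gave more molecules (median 591295) than control males (329947), whereas females at 5 mg/kg gave fewer (320470) than control females (418492). In sections of whole liver, fewer cells of a type and less RNA per cell cannot be told apart. One library, from female 355 at 0.5 mg/kg, had 6711981 reads, below the limit of 2 standard deviations under the mean that the study set, and it was left out. Its lowest peak lay at 72.9 reads. It also stood apart in 8 of the 10 genes, above each control female, as it did in 18.9% of all genes. All comparisons below are without it, and its values are given at the end.

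At 5 mg/kg in males, 3 of the 10 genes rose and none fell. They were Ccng1, Gadd45a and Mcl1, at an adjusted p below 0.1 in edgeR's quasi-likelihood test, with Benjamini-Hochberg adjustment over all probes of the 12412 genes tested. Across all genes tested, 9.35% passed this threshold in that comparison and 5.59% passed it upward. The median log2 fold change of the 10 genes was 1.03, beside 0.11 over all genes. In every other treated group the count of genes that passed was 0. The plot of counts by dose shows each mouse, and levels below are CPM (counts per 1000000 reads) after scaling by the trimmed mean of M-values (TMM).

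**Figure D1:**
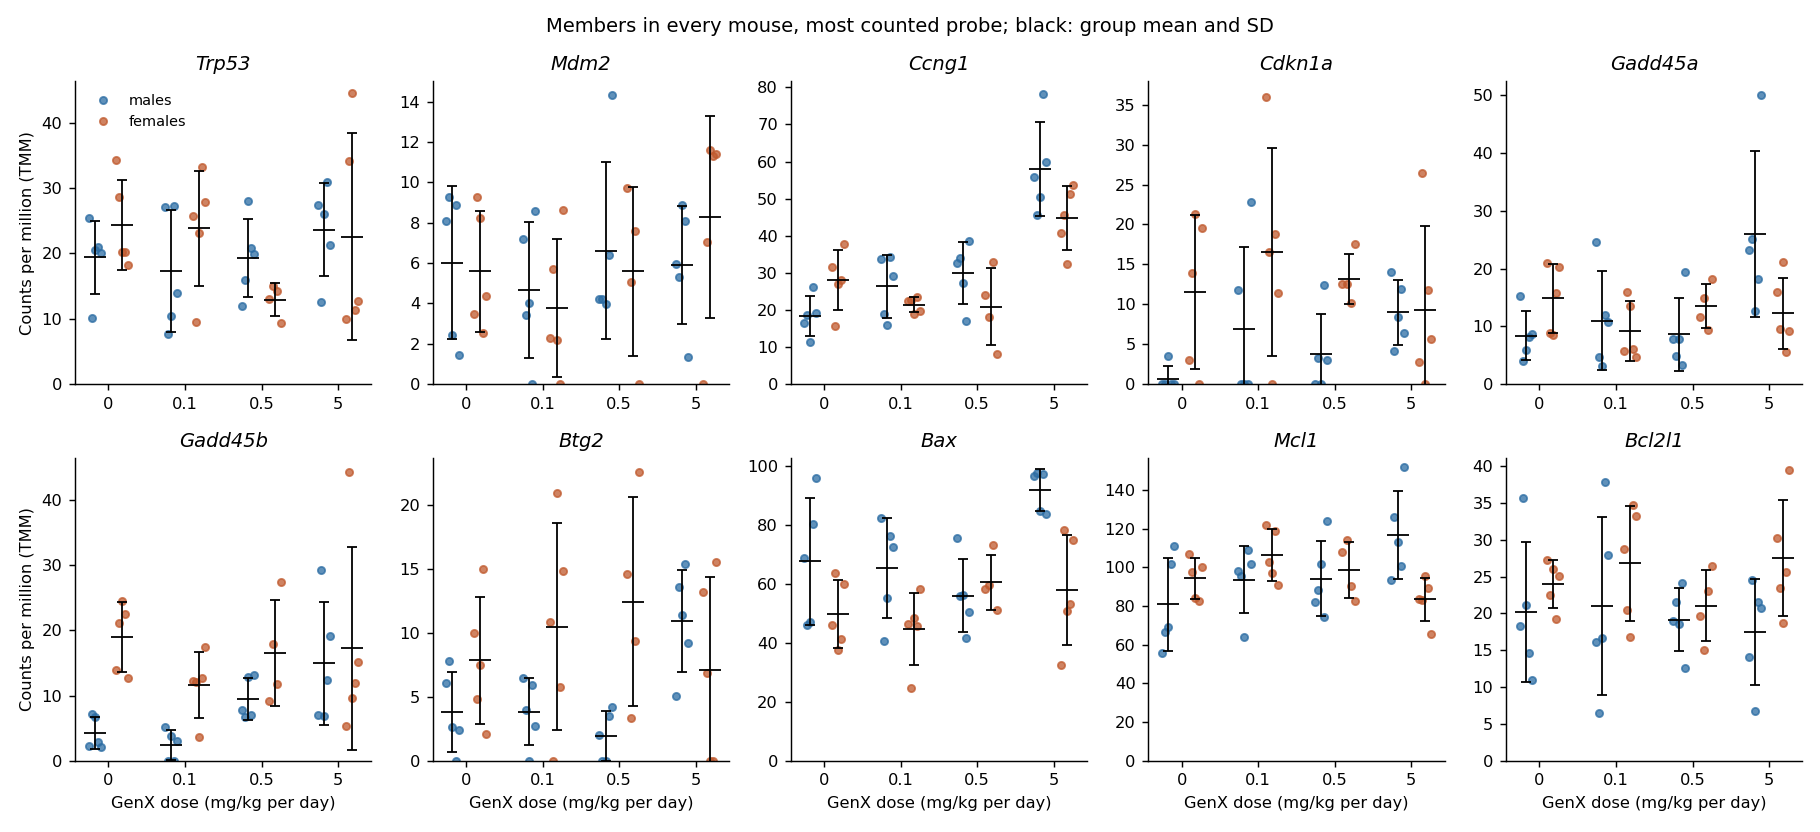
TMM-scaled CPM (vertical axis, from 0, a separate scale per gene) in each mouse by daily GenX dose in mg/kg (horizontal axis), males in blue and females in orange, with the group mean and SD in black. Ccng1 in males at 5 mg/kg (45.5 to 78.2 CPM) lies above all control males (11.3 to 26.1 CPM).

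Ccng1 (chr11:40748552-40755311, minus strand, GRCm38) encodes cyclin G1, a p53 target that recruits a phosphatase to Mdm2 and takes part in p53 feedback. Control males had 16.6, 18.6, 11.3, 26.1 and 19.2 CPM. Males at 5 mg/kg had 55.9, 45.5, 50.5, 78.2 and 59.9 CPM, so the groups did not overlap. The mean was 18.4 ± 5.33 CPM (SD, n = 5) in controls and 58.0 ± 12.6 CPM (SD, n = 5) in the highest dose group. This was a change of 1.66 ± 0.30 in log2 units (SE, adjusted p = 6.4e-05). In the lower male groups the mean was 26.4 ± 8.51 CPM (0.1 mg/kg) and 29.9 ± 8.32 CPM (0.5 mg/kg; SD, n = 5 each), with fitted changes of 0.52 (adjusted p = 0.513) and 0.70 (adjusted p = 0.259) in log2 units. At 0.5 mg/kg 4 of 5 males lay above all control males, and 3 of 5 did so at 0.1 mg/kg. Ccng1 has a single probe.

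In females Ccng1 started from 28.1 ± 8.16 CPM (SD, n = 5) in controls, with values of 31.7, 15.6, 26.9, 28.2 and 37.9 CPM. At 5 mg/kg the females had 40.8, 45.6, 32.5, 51.3 and 53.8 CPM, and 4 of 5 lay above all control females. The change of 0.67 in log2 units (95% interval 0.09 to 1.26, adjusted p = 0.258) did not pass the threshold. The 2 lower doses had means of 21.5 ± 2.06 CPM (SD, n = 5) and 20.9 ± 10.4 CPM (SD, n = 4). The difference between the sexes in the response at 5 mg/kg, female minus male, was −0.98 on the log2 scale (95% interval −1.81 to −0.16, adjusted p = 0.287).

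Mdm2 (chr10:117688875-117710758, minus strand) did not follow Ccng1. Control males had 8.09, 9.29, 2.42, 8.89 and 1.45 CPM, and males at 5 mg/kg had 5.95, 5.29, 8.85, 8.09 and 1.34 CPM. The groups overlapped fully, with a log2 fold change of −0.03 and a 95% interval of −2.24 to 2.18 that leaves both a 4-fold rise and a 4-fold fall possible at this depth. Trp53 itself (chr11:69580359-69591873, plus strand) had 19.4 ± 5.62 CPM in control males and 23.6 ± 7.07 CPM in the highest dose group (SD, n = 5 each), which is a change of 0.28 in log2 units (95% interval −0.51 to 1.07). The second probe of Mdm2 was too low to be tested, and that of Trp53 gave 0.34 with an interval of −4.22 to 4.91.

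Gadd45a (chr6:67035096-67037457, minus strand) encodes a stress protein that acts in growth arrest and in signalling to stress kinases. Control males had 15.2, 4.00, 5.93, 8.10 and 8.76 CPM, whereas males at 5 mg/kg had 23.3, 25.2, 12.7, 18.2 and 50.1 CPM. All but 1 of the dosed males lay above every control male. Gadd45a changed by 1.62 ± 0.54 in log2 units (SE, adjusted p = 0.0578). This call was lost without male 102, 103, 104 or 405 in turn (adjusted p up to 0.218, log2 fold change 1.24 to 1.95 over all 10 mice left out in turn), and with all 40 libraries in the fit (adjusted p = 0.264). Its 2 other probes did not pass, one with a log2 fold change of 0.58 (95% interval −3.40 to 4.56), the other with no reads in any control male and 3.99, 0, 1.75, 0 and 3.94 CPM at 5 mg/kg (adjusted p = 0.153).

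Gadd45b (chr10:80930073-80932204, plus strand), a relative that is also raised by cytokines, had 2.30, 7.24, 6.79, 2.86 and 2.2 CPM in control males and 7.03, 29.3, 6.86, 12.4 and 19.2 CPM at 5 mg/kg. The log2 fold change of 1.81 (95% interval 0.36 to 3.25) did not pass on this probe (adjusted p = 0.144). On the second probe control males had 0, 3.41, 2.18, 0 and 0 CPM and males at 5 mg/kg had 11.9, 12.4, 8.24, 10.9 and 20.8 CPM, without overlap, and that probe passed (log2 fold change 3.51 ± 1.05 SE, adjusted p = 0.028). DESeq2 called Gadd45b on the most counted probe as well (log2 fold change 1.72, adjusted p = 0.0827), which made its count 4 of 10. Of all genes, DESeq2 called 1430 of 12401 in males at 5 mg/kg. In edgeR Gadd45b also passed with no filter on low counts (adjusted p = 0.0954) and with the compared groups alone (adjusted p = 0.0767). It passed with probes summed by gene (adjusted p = 0.00238) and on molecules (adjusted p = 0.0211). It did not pass with DESeq2's size factors (adjusted p = 0.17), with all 40 libraries (adjusted p = 0.2) or as single mice were left out (adjusted p = 0.125 to 0.291).

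Cdkn1a (chr17:29090976-29100727, plus strand) encodes p21, the cyclin-dependent kinase inhibitor through which p53 arrests the cell cycle. It was listed at 0 in 4 of the 5 control males and at 3.51 CPM in the fifth, which is 45 reads or about 1.1 molecules. Males at 5 mg/kg had 14.1, 4.10, 8.39, 11.9 and 6.41 CPM, from 69 to 209 reads, and none overlapped the controls. Cdkn1a and Ccng1 were the 2 genes of 10 whose groups did not overlap here, against 9.31% of all genes. The log2 fold change of Cdkn1a was 3.65 with a 95% interval of 0.50 to 6.80, and it did not pass (adjusted p = 0.178). The fold depends on the single control male with reads, male 103. Without it the fitted value was 9.89, against a control group at 0 reads and so no measure of size, with an adjusted p of 0.00742. With all mice Cdkn1a passed when no filter on low counts was used (adjusted p = 0.0188) and on molecules (adjusted p = 0.0621). Its second probe had no reads in any control male or in any male at 5 mg/kg. At the lower doses the males were scattered, with 11.8, 0, 0, 0 and 22.8 CPM at 0.1 mg/kg and 0, 3.32, 0, 12.4 and 2.97 CPM at 0.5 mg/kg.

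Btg2 (chr1:134075170-134079120, minus strand), an antiproliferative p53 target that binds the mRNA deadenylation machinery, had 6.08, 7.84, 2.65, 0 and 2.44 CPM in control males and 5.07, 13.6, 11.4, 15.4 and 9.22 CPM at 5 mg/kg. The log2 fold change of 1.52 had an interval of −0.93 to 3.97 and did not pass (adjusted p = 0.636). Thus the 4 growth arrest genes had fitted log2 fold changes between 1.52 and 3.65 at 5 mg/kg in males, of which only that of Gadd45a passed on the most counted probe.

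Among the apoptosis regulators, Mcl1 (chr3:95658788-95663176, plus strand), which holds pro-death family members in check at the mitochondrion, rose modestly. Control males had 55.9, 66.8, 69.4, 102 and 111 CPM and males at 5 mg/kg had 93.6, 126, 113, 101 and 152 CPM. The ranges overlapped, and 3 of 5 dosed males lay above all controls. Mcl1 changed by 0.53 ± 0.18 in log2 units (SE, adjusted p = 0.0777). The call was lost when DESeq2's size factors replaced TMM in edgeR (log2 fold change 0.46, adjusted p = 0.144), with no filter on low counts, with the compared groups alone, with all 40 libraries (adjusted p = 0.14 to 0.18), and when any of males 101, 102, 103, 402, 403 or 405 was left out (adjusted p up to 0.223).

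Bax (chr7:45461697-45466898, minus strand) encodes the pore-forming protein that opens the outer mitochondrial membrane. Control males had 68.9, 46.1, 47.0, 80.3 and 96.2 CPM, and males at 5 mg/kg lay close together at 96.7, 97.7, 84.7, 97.5 and 83.9 CPM. Its log2 fold change of 0.44 had an interval of −0.03 to 0.92 and did not pass (adjusted p = 0.27). Bcl2l1 (chr2:152780668-152831728, minus strand), which encodes the survival protein Bcl-xL, had 20.2 ± 9.49 CPM in control males and 17.5 ± 7.16 CPM at 5 mg/kg (SD, n = 5 each). Its log2 fold change was −0.20 (interval −0.92 to 0.51) on this probe and −0.63 (interval −1.43 to 0.18) on the other.

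**Figure D2:**
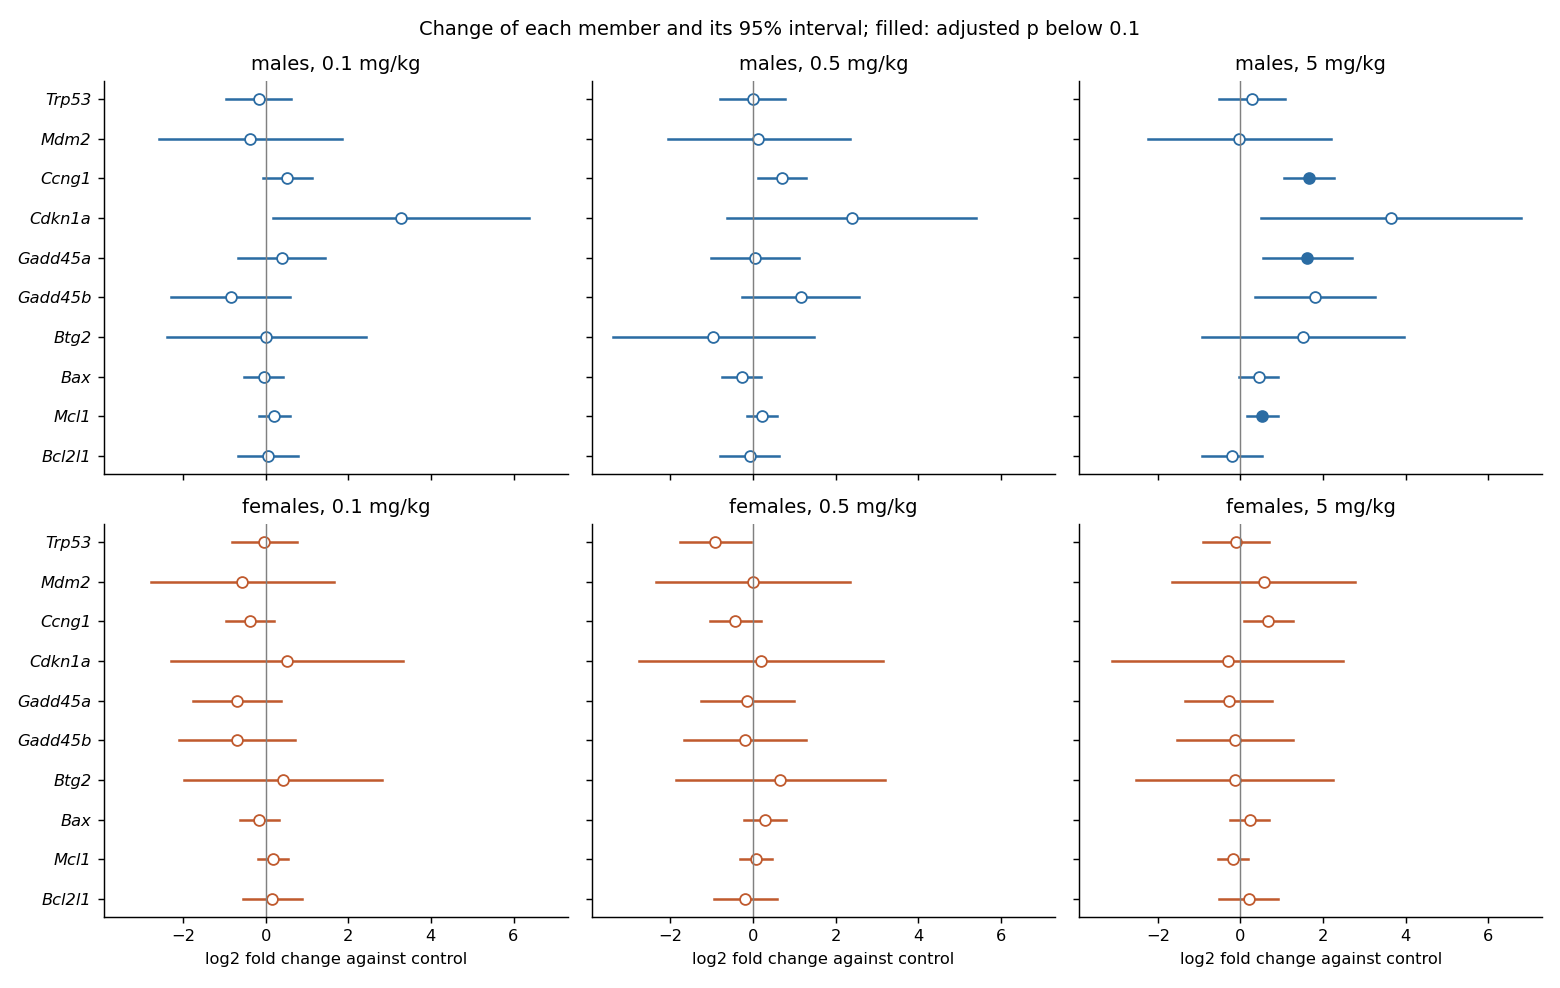
Fitted log2 fold change against the controls of the same sex (horizontal axis) for each of the 10 genes (rows), with 95% intervals as lines, in 6 panels by sex and dose. The 3 filled points, Ccng1, Gadd45a and Mcl1 in males at 5 mg/kg, have an adjusted p below 0.1, and intervals are widest for Cdkn1a, Btg2 and Mdm2.

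At the lower doses none of the 10 genes passed. At 0.1 mg/kg in males, where 0.0403% of all genes passed, the count was 0 in edgeR and in DESeq2, and 1 gene had an unadjusted p below 0.05. At 0.5 mg/kg in males, where 2.61% passed, the count was likewise 0 with both tools and 1 at the unadjusted level, Ccng1. Of all genes, 12.9% and 18% had an unadjusted p below 0.05 in these comparisons. In males the median of the 10 log2 fold changes was 0.04 at the lowest dose and 0.09 at the middle dose, beside 0.0 for all genes at both.

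In females no gene passed at any dose. Of all genes, 0.0% were called at the lowest dose, 0.201% at the middle dose and 4.09% at the highest, and DESeq2 also called none of the 10 at any of these doses. At an unadjusted p below 0.05 the counts were 0, 1 and 1, beside 9.6%, 9.83% and 18% of all genes. The 1 gene at 0.5 mg/kg was Trp53, with 13.1, 15, 14.2 and 9.34 CPM in the 4 dosed females against 34.3, 28.6, 20.2, 20.2 and 18.3 CPM in controls. These groups did not overlap, as for 1.82% of all genes, but the log2 fold change of −0.91 did not pass (adjusted p = 0.485). At 5 mg/kg Trp53 stood at 10, 34.2, 44.5, 11.3 and 12.8 CPM, with values below, within and above the control range. No gene of the 10 was free of overlap at 5 mg/kg in females, against 3.71% of all genes.

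The 4 growth arrest genes, with fitted changes of 1.52 or more in males, had fitted changes between −0.31 and −0.14 in females at 5 mg/kg. Their intervals were wide, from −3.10 to 2.49 for Cdkn1a and from −1.34 to 0.77 for Gadd45a. Cdkn1a had 3.06, 13.9, 21.3, 0 and 19.5 CPM in control females and 2.78, 26.4, 0, 11.8 and 5.64 CPM at 5 mg/kg. Gadd45a had means of 14.9 ± 5.97 CPM in controls and 12.2 ± 6.21 CPM at 5 mg/kg, and Gadd45b 19 ± 5.34 and 17.2 ± 15.6 CPM (SD, n = 5 each). Mcl1 had 94.3 ± 10.7 CPM in controls and 83.5 ± 11 CPM when dosed with 5 mg/kg, which is −0.18 in log2 units (interval −0.54 to 0.19). Mdm2 was at 0 in 1 of the 5 females at 5 mg/kg and at 7.06 to 11.6 CPM in the others, against 2.54 to 9.27 CPM in controls (log2 fold change 0.57, interval −1.65 to 2.78).

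The sexes were compared directly by the interaction of sex and dose. None of the 10 genes passed at any dose in edgeR or in DESeq2, where 0.0%, 0.322% and 1.19% of all genes passed in edgeR. At an unadjusted p below 0.05 the counts were 1, 1 and 3, beside 7.98%, 10.7% and 12.6% of all genes. The 3 at 5 mg/kg were Mcl1 (female minus male change −0.71, interval −1.23 to −0.19, adjusted p = 0.179), Gadd45a (−1.91, interval −3.41 to −0.41, adjusted p = 0.236) and Ccng1. Calls were made in males alone, but a difference between the sexes in the response did not pass for any of the 10 genes.

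The controls of both sexes were also compared, since some of these genes had unlike levels without GenX. On the most counted probe of Gadd45b, control females had 13.9, 21.1, 24.5, 22.6 and 12.7 CPM, all above the control males (2.2 to 7.24 CPM), a lack of overlap seen in 4.06% of all genes. The log2 difference of 2.15 ± 0.73 (SE) did not pass (adjusted p = 0.122, with 3.89% of all genes called), but it passed on the second probe (4.06 ± 1.07 SE, adjusted p = 0.0238) and in DESeq2. None of the 10 passed in edgeR on the most counted probe, 1 passed in DESeq2, and 3 had an unadjusted p below 0.05, as did 18.9% of all genes. Mean Gadd45b was 2.39 to 14.9 CPM over the 4 male groups and 11.6 to 19 CPM over the female groups. Cdkn1a was 0.70 to 8.98 CPM in males and 9.33 to 16.6 CPM in females, and Btg2 1.94 to 10.9 CPM in males and 7.14 to 12.5 CPM in females. For Gadd45b, Cdkn1a and Btg2 the highest male mean was that of the 5 mg/kg group, within or near the range of the female means. The same held for Trp53 (23.6 CPM, female means 12.9 to 24.3 CPM). None of these genes passed there on its most counted probe. Males at 5 mg/kg had means above every female mean for Ccng1 (58.0 against at most 44.8 CPM), Gadd45a (25.9 against 14.9), Mcl1 (117 against 106) and Bax (92.1 against 60.65). Mdm2 and Bcl2l1 had their highest male mean at a lower dose. Marker lists also stood apart between the controls. Lymphocyte and neutrophil markers summed to 40.1 to 112 CPM in females and 5.16 to 10.6 CPM in males, mostly through Lcn2 (25.2 to 81.4 against 0 to 6.4 CPM), an acute-phase gene that hepatocytes can also express. Endothelial markers summed to 355 to 406 CPM in females and 299 to 333 CPM in males, and the Kupffer cell marker Cd5l was higher in females (log2 difference 1.05, adjusted p = 0.0751). Their part in these differences was not tested.

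Other genes of the pathway were read from lists. Of 27 further p53 targets, 24 were tested and 2 rose in males at 5 mg/kg in edgeR, a share near the 9.35% of all genes called there. DESeq2 also called 2. In females edgeR and DESeq2 called 0, and 3 had an unadjusted p below 0.05. Trp53inp1, which promotes p53 phosphorylation and autophagy, had 62.4 ± 13.3 CPM in control males and 119 ± 46.3 CPM at 5 mg/kg (log2 fold change 0.93, adjusted p = 0.0441). Mdm4, the Mdm2 relative that blocks p53 transactivation, had 36.8 ± 13 and 57.7 ± 10.1 CPM (0.65, adjusted p = 0.0691). The list's median change in log2 units was 0.69 in these males and 0.02 in the females of the same dose. The classical death targets did not pass. Bbc3, which encodes Puma, had 13.4 ± 9.72 CPM in control males and 11.3 ± 5.71 CPM at 5 mg/kg, Pmaip1, which encodes Noxa, 1.68 ± 1.55 and 1.60 ± 1.01 CPM, and the death receptor gene Fas 10.6 ± 6.02 and 25.9 ± 11.1 CPM (log2 fold change 1.29, adjusted p = 0.286; SD, n = 5 each).

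Of 16 other BCL2 family genes, 13 were tested and 2 rose in males at 5 mg/kg, beside 9.35% of all genes called and 5.59% called upward. In females edgeR and DESeq2 called 0, beside 4.09% of all genes in edgeR, and 2 had an unadjusted p below 0.05. The 2 genes that rose in males, Bnip3 and Bnip3l, encode mitophagy receptors with a BH3-like region. Bnip3 had 25.4 ± 10.2 CPM in control males, 52.8 ± 10.4 CPM in the 0.5 mg/kg group and 51.0 ± 6.04 CPM in the 5 mg/kg group (SD, n = 5 each), log2 fold changes of 1.05 (adjusted p = 0.0138) and 1.01 (adjusted p = 0.00606). Bnip3l rose from 75.8 ± 6.41 to 106 ± 10.4 CPM at 5 mg/kg (0.48, adjusted p = 0.0963). In control females Bnip3 already stood at 67.1 ± 21 CPM, and it was 67.7 ± 16.7 CPM at 5 mg/kg.

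The machinery downstream and the kinases upstream were read at 5 mg/kg as well. All 25 genes of the caspase, apoptosome and inhibitor list were tested and edgeR called none in either sex. At an unadjusted p below 0.05 there were 0 in males and 2 in females, and DESeq2 called 1 and 0. Of 21 genes of DNA damage sensing, 17 were tested and none was called by edgeR or DESeq2 in either sex, with 0 and 1 at the unadjusted level. Atm, the kinase that starts the response to double-strand breaks, had 15.4 ± 7.07 and 9.11 ± 3.20 CPM in males (adjusted p = 0.757). Of 8 relatives of the 10 genes, 6 were tested and none was called by either tool at 5 mg/kg, with 2 in each sex at the unadjusted level. Of these, Gadd45g had 22.3 ± 17.8 CPM in control females and 6.23 ± 5.63 CPM at 5 mg/kg (log2 fold change −1.84, adjusted p = 0.258). In males these 3 lists had medians of −0.07, 0.15 and 0.65, and the corresponding female medians were 0.0, 0.04 and 0.24.

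**Figure D3:**
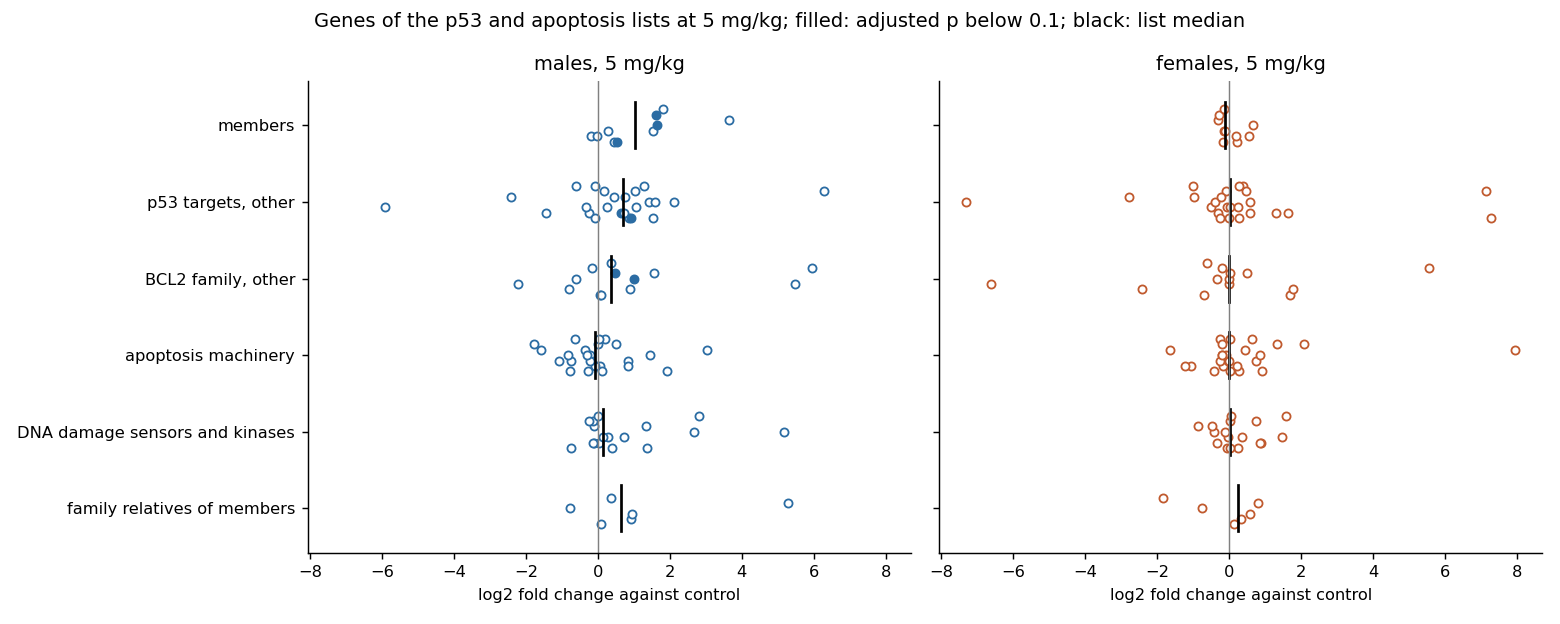
Fitted log2 fold change against control (horizontal axis) at 5 mg/kg for each tested gene of 6 lists (rows), males left and females right, with filled points for an adjusted p below 0.1 and a black bar at each list's median. Filled points occur in males, in the top 3 rows, and the row medians in males run from −0.07 to 1.03; points beyond about 4 in size belong to genes with a group at 0 reads.

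Other gene groups moved in the same males. Of 18 proliferation genes, 17 were tested and edgeR called 2, a share near the 9.35% of all genes called there. They were Top2a and Plk1, listed at 0 in every control male and at means of 13.4 ± 6.44 and 13.3 ± 7.36 CPM at 5 mg/kg. The summed list ran from 152 to 227 CPM in these males against 41.8 to 63.2 CPM in control males. In these males 9 had an unadjusted p below 0.05, beside 22.8% of all genes, and the list's median log2 fold change was 2.61. In females 0 were called by either tool, 1 had an unadjusted p below 0.05 and the median was 0.56. Of 18 immediate-early genes, 14 were tested, and at 5 mg/kg their median log2 fold change was 0.64 for males and 0.24 for females. At that dose edgeR called 2 in each sex, all lower, beside 9.35% of all genes in males and 4.09% in females. In males 5 had an unadjusted p below 0.05, beside 22.8% of all genes. DESeq2 called 3 in males, beside 1430 of all 12401 genes. Of the 3, Jun was higher (2.29, adjusted p = 0.0447, against 0.112 in edgeR). Ier2 fell in both sexes at 5 mg/kg (by −0.86 in males, by −1.01 in females, in log2 units, adjusted p = 0.00929 and 0.00316), with Zfp36 in males (−0.88, adjusted p = 0.0854) and Dusp1 in females (−1.32, adjusted p = 0.0472). Of 10 PPARA targets 8 rose in males and 5 in females, among them Ehhadh, from 205 ± 50.8 to 10600 ± 1920 CPM in males and from 253 ± 46.2 to 7870 ± 1460 CPM in females.

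Cell type markers were read beside these changes. Of 9 hepatocyte markers, 7 were in the table and were counted in every group. Apoa1, Hnf4a and Cps1 fell in both sexes at 5 mg/kg. The sum over the 7 was 37500 to 44000 CPM in control males and 21400 to 31900 CPM at 5 mg/kg, with Apoa1 the most counted of those that fell. Among stellate cell and fibroblast markers Col1a1 and Col3a1 rose and Ecm1 fell in males at 5 mg/kg, while the sum was 236 to 324 and 259 to 333 CPM. Of 7 endothelial markers Clec4g fell there, and the sum was 299 to 333 CPM in control males and 205 to 308 CPM at 5 mg/kg. Kupffer cell and macrophage markers summed to 49.0 to 116 and 46.6 to 69.7 CPM, and lymphocyte and neutrophil markers to 5.16 to 10.6 and 16 to 27.2 CPM, with Ms4a1, S100a8 and S100a9 at 0 in both groups. The higher sum came with Lcn2 (0 to 6.4 and 7.1 to 24 CPM), whereas the median log2 fold change of the list was −0.47 and Cd3e was at 0 in the dosed males. Cholangiocyte markers summed to 31.9 to 60.7 and 40 to 95.2 CPM, with Epcam and Sox9 at 0 in both. In males at 5 mg/kg edgeR called 0 genes of these last 3 lists, 5 had an unadjusted p below 0.05 and DESeq2 called 1. The part of these markers, of proliferation and of the larger number of molecules in the rise of Ccng1, Gadd45a and Mcl1 was not tested. When reads were first divided by the reads per molecule, Ccng1 gave a log2 fold change of 1.69 and 5 of the 10 genes were called. Of all 12412 genes tested, 1616 were called in that setting, beside 1160 on reads.

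The library of female 355 gave a different picture of the same genes. On a scale set over all 40 libraries, 8 of the 10 genes lay above each of the 5 control females, as did 18.9% of all genes, and 7 lay above every one of the 39 other mice, as did 12.2% of all genes. The other 4 females at 0.5 mg/kg had 1 or 2 of the 10 genes above each control female, beside 15.5% to 16.7% of all genes. Gadd45a stood at 1160 CPM (9374 reads, about 128.6 molecules) against 8.53 to 21 CPM in control females, and its 2 other probes stood at 460 and 218 CPM against at most 5.35 CPM. Btg2 was at 200 CPM against 2.07 to 15.1 CPM, Bcl2l1 at 99.6 against 19.2 to 27.3, and Bax at 158 against 37.9 to 64.2 CPM. Mdm2, at 30.4 CPM, rested on about 3.4 molecules. Trp53 (9.38 CPM) and Ccng1 (20.5 CPM) were not above the control females.

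**Figure D4:**
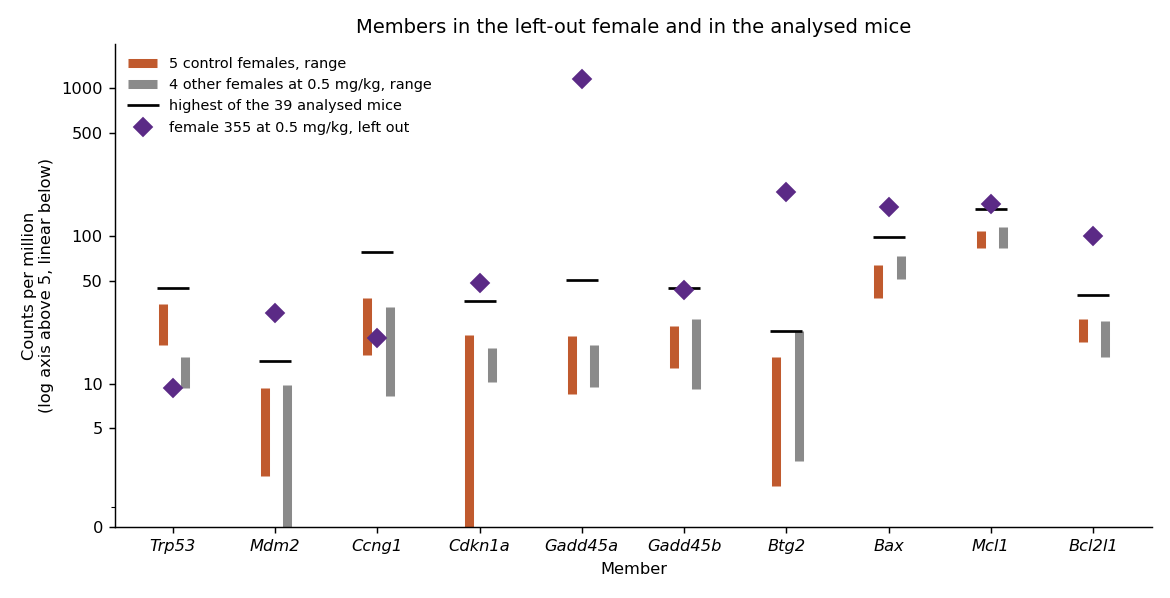
CPM scaled over all 40 libraries (vertical axis, logarithmic above 5 and linear below) for each of the 10 genes (horizontal axis) in left-out female 355 (diamonds), with bars for the ranges of 5 control females and 4 other females at 0.5 mg/kg and a black tick for the highest of the 39 analysed mice. Gadd45a, at 1160 CPM, lies farthest above the others, and Trp53 and Ccng1 lie within or below the range of the control females.

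The same library held about 92099 molecules, the fewest of the 40. Of 14 immediate-early genes, 13 lay above each control female and their sum over the list was 2380 CPM against 251 to 433 CPM. Of the other p53 targets 7 of 24 lay above, of the other BCL2 family genes 3 of 13, and of the apoptosis machinery 4 of 25, shares of 29.2%, 23.1% and 16% beside 18.9% of all genes. Kupffer cell and macrophage markers were above in 7 of 8, while 0 of 7 hepatocyte markers were, with a sum of 17500 CPM against 29200 to 48000 CPM. Because it is 1 mouse, no test was made, and the part of depth, RNA quality and cell makeup in these values was not tested.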

How the data were processed

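Livers of 40 mice were measured by TempO-Seq. Per the labels, bcl2fastq 2.17.1.14, Bowtie and the mm10 genome were used, and the authors deposited raw counts of reads per probe, not normalized, which carry amplification duplicates. Groups came from the labels. The library under 2 SD below the mean depth was left out after the study's rule. Counts were fitted in R 4.3.3 with edgeR 4.0.16 (TMM, filterByExpr, quasi-likelihood, 8 sex and dose groups, 39 libraries), with Benjamini-Hochberg adjustment over all tested probes and a threshold of 0.1. DESeq2 1.42.0 was an alternative. Both were tested on simulated data, where only better counted probes were changed and amplification from molecules was not included. That test says nothing of the low members, such as Mdm2 and Btg2. The reads per molecule were taken from the lowest peak of each library's probe counts. The intervals given belong to the fold changes fitted by edgeR's quasi-likelihood method, and they include the fitted variation between mice. Promoter letters came from RefSeq and gene positions from GENCODE, both on GRCm38. All 10 genes are named in every comparison, and of other lists up to 4 genes per sex that passed at 5 mg/kg, by size, with further pathway genes named after their values were seen (Bbc3, Pmaip1, Fas, Atm, Jun, Lcn2, Cd5l, Gadd45g). The genes, lists and tests were chosen with earlier results of these data known. Probe sequences and proteins were not used here. Alternatives were DESeq2, its size factors in edgeR, no filter, all 40 libraries, the compared groups alone, probes summed by gene, molecules, a threshold of 0.05, other probes, and each mouse left out.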

Additional observations from a re-analysis of the deposited data

Results flagged for a closer look

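Within groups of 4 or 5 mice, 6 of 80 groups held a mouse far from the others by Dixon's criterion. For normally spread values chance flags about 1 group in 20. Groups near 0 with few molecules are not spread so, and the count is no measure of an excess. The mice flagged were male 305 at 0.5 mg/kg for Mdm2 (14.3 CPM) and Gadd45a (19.4 CPM), and control male 103 for Cdkn1a (3.51 CPM). The others were male 304 at 0.5 mg/kg for Cdkn1a (12.4 CPM), female 452 at 5 mg/kg for Gadd45b (44.3 CPM), and male 203 at 0.1 mg/kg for Mcl1 (64.1 CPM, the lowest). Male 103 was the only control male with reads of Cdkn1a.

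The left-out library of female 355 at 0.5 mg/kg held values above every control female for Mdm2 (30.4 CPM), Cdkn1a (47.9 CPM), Gadd45a (1160 CPM), Gadd45b (43.1 CPM), Btg2 (200 CPM), Bax (158 CPM), Mcl1 (165 CPM) and Bcl2l1 (99.6 CPM), on the scale of all 40 libraries. Of all genes, 18.9% lay above every control female in this library. It is 1 mouse and was not tested.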

How the results depend on the processing

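The rise of Ccng1 in males at 5 mg/kg kept its direction and its call under each alternative run, with log2 fold changes of 1.53 to 1.82 as each mouse was left out. The count of genes called in males at 5 mg/kg was 3. It was 1 at a threshold of 0.05, 1 with all 40 libraries, 4 with DESeq2 and 5 on molecules. With DESeq2's size factors in edgeR Mcl1 was lost. With no filter Mcl1 was lost, and Cdkn1a and Gadd45b passed. With the compared groups alone Gadd45b passed in place of Mcl1, and with probes summed by gene Gadd45b was added. As each of the 39 mice was left out the count was 1 to 4, with 1 without control male 102 or male 405. For fits with a mouse left out, and for the threshold of 0.05, the count among all genes is not given here. The counts in those settings can therefore not be set beside a share of all genes. Among all genes 1160 of 12412 were called in the main fit. With all 40 libraries 652 of 12017 were, and on molecules 1616 of 12412. DESeq2 called 1430 of 12401 and its size factors in edgeR 1122 of 12412. The fit with no filter called 1095 of 16275, the compared groups alone 1307 of 9653 and summed probes 1362 of 12515. With all 40 libraries the count in females at 0.5 mg/kg was 1, since Gadd45a then changed by 3.99 in place of −0.14 on the log2 scale, with female 355 included. Of all genes, 8 of 12017 were called there. Leaving out each mouse gave 0 to 1 in males at 0.5 mg/kg, 0 to 1 for the sex difference in the response to 5 mg/kg and 0 to 1 between the controls, the first 2 without control male 103, where Cdkn1a passed, and the third without control male 103 or male 202 or 204. Between control females and control males the count was 1 with DESeq2, 1 with the compared groups alone, 1 with probes summed by gene, 2 with no filter and 2 on molecules, against 0. Among all genes, DESeq2 called 813 of 12220, the compared groups alone gave 418 of 9249 and summed probes 539 of 12515. No filter gave 518 of 16275 and molecules 541 of 12412, against 483 of 12412. Counts under the other alternatives in males at 0.1 mg/kg, females at 0.1 and 5 mg/kg and the sex differences at 0.1 and 0.5 mg/kg were the same. Over the 100 fold changes of single genes, 22 alternative values gained a call, 19 lost it and 1 turned in sign with a call. These fell in 9 fold changes, and the cause was not tested. Sign changes without a call were not counted. Fold changes near 0 crossed it as single mice were left out, as for Mdm2 in males at 5 mg/kg (−0.28 to 0.22). The few molecules behind Mdm2, Btg2, Cdkn1a, Gadd45a and Gadd45b limit what their intervals can show. No paired analysis was possible because animal numbers do not recur between groups.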
